A study of Mus musculus with 14 samples.

Results

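WDR5 peaks of Mll1 flox leukemia cells were compared before and after deletion of Mll1. The members were all WDR5 peaks on the 19 autosomes of the ethanol (EtOH) library and of the 4-hydroxytamoxifen (4OHT) library, 33974 and 40439 peaks. Together these were 74413 of the 532629 peaks in the 10 peak lists of the series, which has 14 samples, 4 of them inputs that were not analysed here. An EtOH peak was called kept when it shared at least 1 bp with a 4OHT peak, shifted when it shared none but had a 4OHT peak within 2 kb, and absent when the nearest 4OHT peak was further away. The 4OHT peaks were sorted in the same way against the EtOH list.

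The cells were mouse bone marrow cells with floxed Mll1 and a Cre recombinase fused to the estrogen receptor, transduced with the leukemia fusion gene MLL-AF9 and grown with interleukin-3. They received 400 nM 4OHT for 2 days, which activates the Cre recombinase and so deletes Mll1, or its solvent EtOH. Both groups carried the fusion, so MLL-AF9 was present in EtOH and 4OHT cells alike, and whether the cells were 1 clone was not stated. A second line, MAF9 cells with intact Mll1, is used here only for comparison. These were also mouse bone marrow cells transduced with MLL-AF9 and grown with interleukin-3. They were given DMSO, or MM-401 dissolved in it (20 µM, 2 days), a compound that blocks the contact of MLL1 and WDR5. Chromatin was fixed with disuccinimidyl glutarate and formaldehyde and precipitated for WDR5 or for histone H3 dimethylated at lysine 4 (H3K4me2), with 1 library per condition and antibody. MLL1 was not mapped in the flox cells, so the deletion could not be checked from these files.

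WDR5 is a WD40-repeat protein and a core subunit of the complexes of MLL1 and the other SET1/MLL methyltransferases, which methylate histone H3 at lysine 4. It binds the methyltransferase through a short WIN motif and also contacts the histone tail and some transcription factors, so it can sit on chromatin with methyltransferases other than MLL1. H3K4me2 marks promoters and enhancers in hematopoietic cells and often forms broad domains around them, with a dip where nucleosomes are missing.

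The lists gave positions on the mouse build mm9 and no score, height or read count. Read depth was therefore unknown, amounts of binding could not be compared, and an absent peak is one that was not called. All WDR5 peaks lay on a grid of 25 bp. Their median width was 125 bp in both libraries, and they covered 5.79 Mb in EtOH and 6.69 Mb under 4OHT. With no replicates there was no replicate error and no test between conditions. Shares are given with 95% Wilson intervals, and medians with 95% intervals from ranks. These intervals hold counting error alone, with neighbouring peaks taken as independent. Differences between 2 libraries and effects of the treatment cannot be told apart.

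To ask what became of WDR5 positions after Mll1 deletion, the EtOH peaks were placed in the 3 classes. Of 33974 peaks, 6349 or 18.7% (18.3 to 19.1%) were kept, 8221 or 24.2% (23.8 to 24.7%) were shifted and 19404 or 57.1% (56.6 to 57.6%) were absent. In the other direction, 15.7% of the 4OHT peaks lay over an EtOH peak, 22.4% were shifted and 61.9% had no EtOH peak within 2 kb. The absent class was thus the most common in both directions, and the 4OHT library held 25021 peaks with no EtOH peak nearby. In bases, 21.2% of the EtOH WDR5 length was also called under 4OHT. The kept share ranged from 12.3% to 24.5% over the 19 autosomes, and the absent share from 46.6% to 68.1%. The limits of the classes cut through a continuous range, since 472 kept peaks shared only 25 bp and 430 shifted peaks lay 1 to 25 bp away. Gaps above 1800 and up to 2000 bp were found for 285 peaks, and gaps above 2000 and up to 2200 bp for 236.

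The classes differed in width. Kept EtOH peaks had a median width of 250 bp (quartiles 175 and 375 bp), shifted peaks 150 bp and absent peaks 125 bp. The 4OHT classes had the same medians. Peaks of at most 100 bp were 11.1% of the kept, 33.1% of the shifted and 44.7% of the absent peaks. Of the 881 EtOH peaks above 500 bp, 781 were kept, 57 shifted and 43 absent. Kept peaks, although 18.7% of the EtOH list, held 33.2% of its length. A wider peak also offers more bases to be overlapped, which this split does not remove.

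The kept pairs lay close together and had similar widths. Their midpoints were a median of 75 bp apart, that is 3 steps of the grid, and 62.8% were at most 100 bp apart. The 4OHT partner was wider for 3039 peaks, narrower for 2912 and equal for 398, with a median difference of 0 bp. The 781 kept EtOH peaks above 500 bp had a median width of 650 bp and 4OHT partners of 475 bp, and 77.3% were wider in EtOH. Chosen from the other side, the 893 pairs with a 4OHT partner above 500 bp had medians of 675 bp under 4OHT and 400 bp in EtOH, and 78.4% were wider under 4OHT. The narrowing of the widest EtOH peaks had a similar counterpart, so no one-sided loss of width was seen at kept sites.

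The 3 widest kept peaks stood at chr17:39979751-39985875, chr7:88488851-88490825 and chr4:137548626-137550575, with widths of 6125, 1975 and 1950 bp. Their 4OHT partners were 3675, 1650 and 1600 bp wide. All 3 were also called for WDR5 in DMSO and under MM-401 and overlapped H3K4me2 in all 4 conditions. The peak on chromosome 17 overlapped a peak in each of the 10 lists, MLL1 lists included, and it was the widest of the EtOH WDR5 list. It was thus called whatever the antibody. The inputs were not analysed, so whether its signal was particular to WDR5 was not tested.

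The classes also differed in location relative to H3K4me2. A WDR5 peak was called inside when it shared at least 1 bp with an EtOH H3K4me2 peak, which held for 18595 EtOH WDR5 peaks, or 54.7%. Inside, the classes were nearly even, with 31.1% (30.4 to 31.7%) kept, 37.4% (36.7 to 38.1%) shifted and 31.5% (30.9 to 32.2%) absent. Outside, 3.71% (3.43 to 4.02%) of 15379 peaks were kept, 8.23% were shifted and 88.1% (87.5 to 88.6%) were absent. Put the other way, 91.0% of kept, 84.6% of shifted and 30.2% of absent peaks lay inside. Among 4OHT peaks these shares were 91.0%, 81.7% and 27.0%, against 49.3% of the whole 4OHT list. Of the absent peaks, 67.1% lay outside the H3K4me2 lists of all 4 conditions, compared with 7.75% of the kept and 14.0% of the shifted peaks.

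The kept share went with both width and location. Inside H3K4me2 the kept share was 13.8% (12.9 to 14.9%) at 75 to 100 bp, 21.2% at 101 to 200 bp, 44.7% at 201 to 300 bp, 65.9% at 301 to 500 bp and 85.7% at 501 to 1000 bp, and all 92 peaks above 1000 bp were kept. Outside, it was 0.897% (0.707 to 1.14%), 2.38%, 24.7%, 77.4% and 96.3% at the same steps, and all 9 peaks above 1000 bp were kept. Narrow peaks were therefore kept far less often outside H3K4me2 than inside, while from 301 bp on the outside peaks were kept at least as often. The shifted class belonged to narrow peaks inside, where it held 45.9% (44.5 to 47.4%) of peaks of 75 to 100 bp, against 8.0% outside. The 14711 outside peaks of up to 200 bp were 43.3% of the whole EtOH list, and 13272 of them, 90.2%, were absent.

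**Figure D1:**
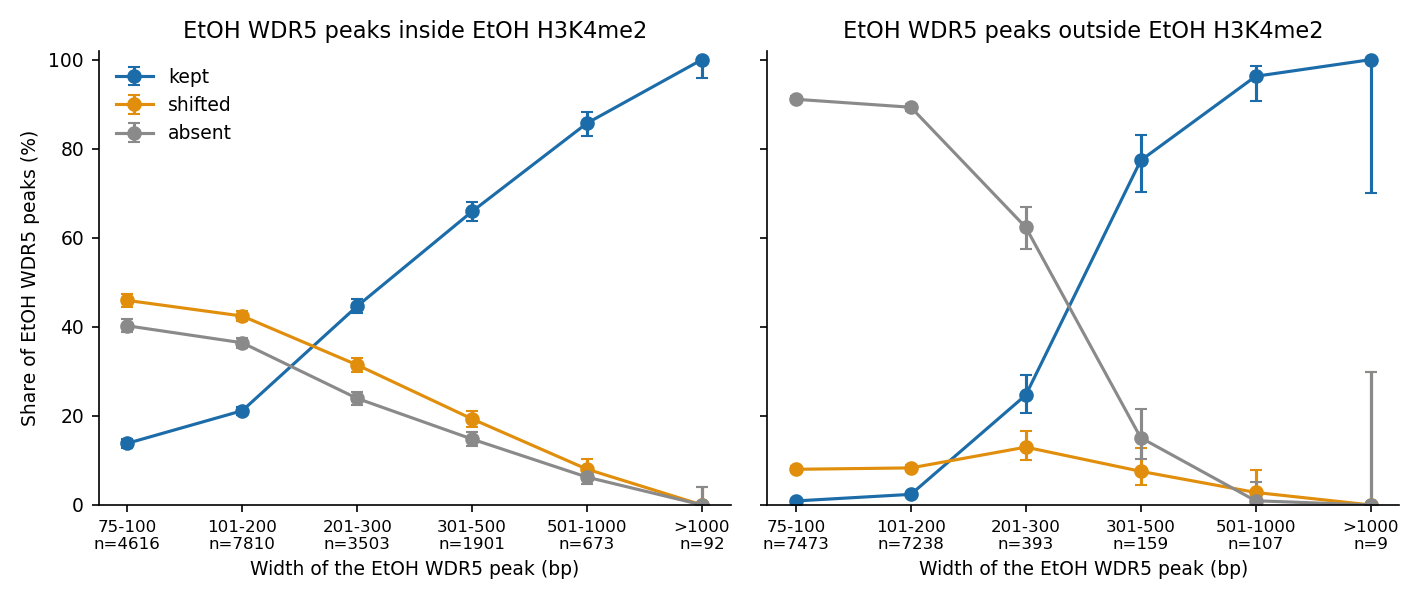
Share of EtOH WDR5 peaks (y axis, percent) that were kept, shifted or absent under 4OHT, by width of the EtOH peak (x axis, bp, with the number of peaks), inside (left) and outside (right) EtOH H3K4me2; bars are 95% Wilson intervals. The kept share is higher at every wider step on both sides, starting from 13.8% inside and 0.897% outside.

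The wide peaks outside H3K4me2 formed a small separate group. Of 116 EtOH peaks above 500 bp outside EtOH H3K4me2, 112 or 96.6% (91.5 to 98.7%) were kept. Inside, it was 669 of 765 or 87.5% (84.9 to 89.6%), and the difference was not tested. All 116 lay outside the H3K4me2 lists of all 4 conditions. They lay on 19 chromosomes but unevenly, with 18 of the 116 on chromosome 9, which held 4.66% of the whole EtOH list. Another EtOH WDR5 peak stood within 2 kb of 47 of the 116. Signal at these places in the inputs was not examined. In MAF9 cells 32 were called in DMSO and 22 under MM-401, and 11 were in all 4 WDR5 lists. The 4OHT library held 104 such peaks, of which 98 were kept, 32 were called in DMSO and 24 under MM-401. Among these 104, 1 peak overlapped 4OHT H3K4me2.

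Shifted peaks were examined next, since a short move and a loss would otherwise be counted alike. Their median gap to the nearest 4OHT peak was 401 bp (376 to 401 bp), and 73.6% (72.7 to 74.6%) had that peak in the same EtOH H3K4me2 peak. A further 6.42% had it in a different H3K4me2 peak, 8.69% had 1 of the pair outside, and 11.3% had both outside. For 25.2% the nearest 4OHT peak was itself over another EtOH peak and so belonged to a kept pair. In 4866 cases, 59.2% of the shifted EtOH and 53.7% of the shifted 4OHT peaks, each was the other's nearest and neither was kept. The shift had no side, as 50.4% (49.4 to 51.5%) of the nearest 4OHT peaks lay towards lower coordinates.

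Within the H3K4me2 peak the shift ran slightly inward in both directions of the comparison. Of 6052 shifted EtOH peaks with their 4OHT neighbour in the same H3K4me2 peak, that neighbour was nearer the H3K4me2 centre for 3140, or 51.9% (50.6 to 53.1%), and further for 2892. The median distance from the centre was 688 bp for the EtOH peak and 638 bp for its 4OHT neighbour. Seen from the 4OHT peaks, the EtOH neighbour was the nearer one for 55.3% (54.1 to 56.5%) of 6591. As each list found the other more central, no common direction of movement was seen.

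The 3 widest shifted EtOH peaks were chr8:75071626-75072550, chr6:83275301-83276200 and chr10:122423026-122423850. They measured 925, 900 and 825 bp, and their nearest 4OHT peaks were 125, 275 and 600 bp wide at gaps of 1051, 1 and 201 bp. The peak on chromosome 6 thus abutted its 4OHT neighbour on the 25 bp grid without a shared base, inside 1 H3K4me2 peak of 6900 bp. All 3 lay in H3K4me2 of all 4 conditions and were called for WDR5 in DMSO.

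The density of peaks around each EtOH peak gave a scale for these distances. Inside H3K4me2 there were 0.768 4OHT midpoints per kb per EtOH peak within 0.25 kb of its midpoint, 0.447 at 0.25 to 0.5 kb, 0.277 at 0.5 to 1 kb, 0.117 at 1.5 to 2 kb and 0.0465 at 40 to 50 kb. Other peaks of the EtOH list itself had 0.406, 0.268, 0.0963 and 0.0367 per kb at the same 4 distances from 0.25 kb on. Beyond 0.25 kb the 4OHT density was thus close to the density of EtOH neighbours, in a list with more peaks, and it stood apart only within 0.25 kb, where peaks of 1 list cannot overlap. Outside H3K4me2 the 4OHT density was 0.0895 per kb within 0.25 kb, 0.0351 at 0.25 to 0.5 kb and 0.0248 at 1.5 to 2 kb, and at 40 to 50 kb it was 0.0269. In between, it was 0.0325 at 0.5 to 1 kb and 0.0305 at 1 to 1.5 kb. The outside density was thus above that at 40 to 50 kb up to 1.5 kb, most of all within 0.25 kb. From 1.5 kb on it was about that of the wider region.

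**Figure D2:**
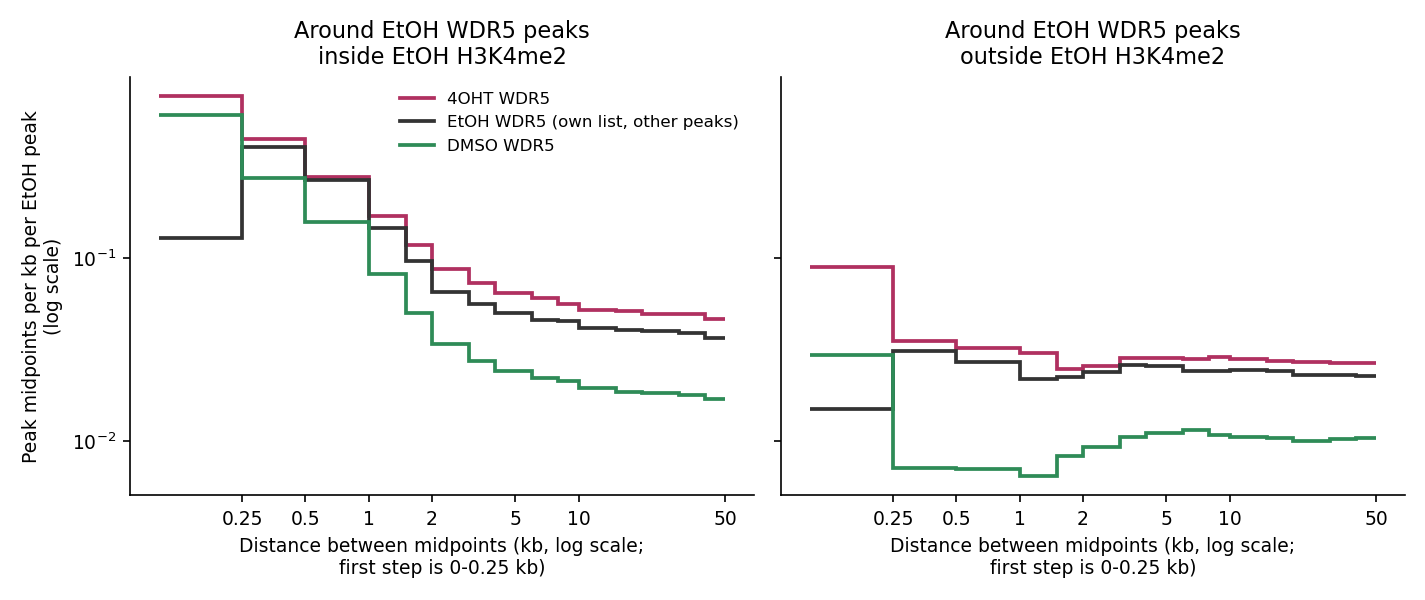
Density of WDR5 midpoints (y axis, per kb per EtOH peak, log scale) against the distance from EtOH WDR5 midpoints (x axis, kb, log scale, the first step being 0 to 0.25 kb), for the 4OHT list, the other peaks of the EtOH list and the DMSO list. Inside EtOH H3K4me2 (left) the 4OHT density runs from 0.768 to 0.0465; outside (right) it runs from 0.0895 to 0.0269 and is level beyond 2 kb.

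Kept and shifted peaks were also the clustered ones. Another EtOH WDR5 peak stood within 2 kb of 55.1% of kept and 58.4% of shifted peaks, against 13.6% (13.2 to 14.1%) of absent peaks and 32.2% of all. The median gap to the next EtOH peak was 1076, 1201 and 17026 bp in these classes. Absent peaks were therefore mostly solitary, and when only peaks without an own neighbour within 2 kb were counted, 85.8% of kept, 73.2% of shifted and 23.7% of absent peaks lay inside H3K4me2.

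Viewed by H3K4me2 peak rather than by WDR5 peak, a larger share was occupied in both libraries. An H3K4me2 peak is also a larger target than a WDR5 peak, which this view does not remove. Of 98735 EtOH H3K4me2 peaks, 12976 held an EtOH WDR5 peak and 13307 a 4OHT WDR5 peak, and 7705 held both, which was 59.4% (58.5 to 60.2%) of the former and 57.9% (57.1 to 58.7%) of the latter. Of these 7705, 4767 held a kept WDR5 peak, and the rest were occupied at other positions. EtOH H3K4me2 peaks without an EtOH WDR5 peak held a 4OHT one in 6.53% of cases, but 60262 of these 85759 were at most 500 bp wide. H3K4me2 peaks with WDR5 in both libraries had a median width of 3525 bp, those with WDR5 in EtOH alone 1825 bp, in 4OHT alone 1800 bp, and those without WDR5 250 bp.

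The number of WDR5 peaks in a domain went with its occupancy after deletion. With 1 EtOH WDR5 peak, 50.2% (49.2 to 51.2%) of H3K4me2 peaks held a 4OHT WDR5 peak, with 2 it was 76.5%, with 3 it was 87.4%, and with 4 or more it was 420 of 437 or 96.1% (93.9 to 97.6%). Width moved with this number. Above 4000 bp, 84.4% of H3K4me2 peaks with EtOH WDR5 and 57.9% of those without held 4OHT WDR5, and at 75 to 500 bp these shares were 13.9% and 1.66%. Where both libraries had WDR5, 1690 domains had more EtOH peaks, 2135 had more 4OHT peaks and 3880 had equal numbers. Domains with 3 or more WDR5 peaks in 1 library and none in the other numbered 127 for EtOH and 169 for 4OHT. Examples chosen after their values were seen were chr4:47485226-47490000, with 5 EtOH peaks and no 4OHT peak, and chr6:124754176-124769425, with 9 4OHT peaks and no EtOH peak. Both remained overlapped by H3K4me2 under 4OHT.

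**Figure D3:**
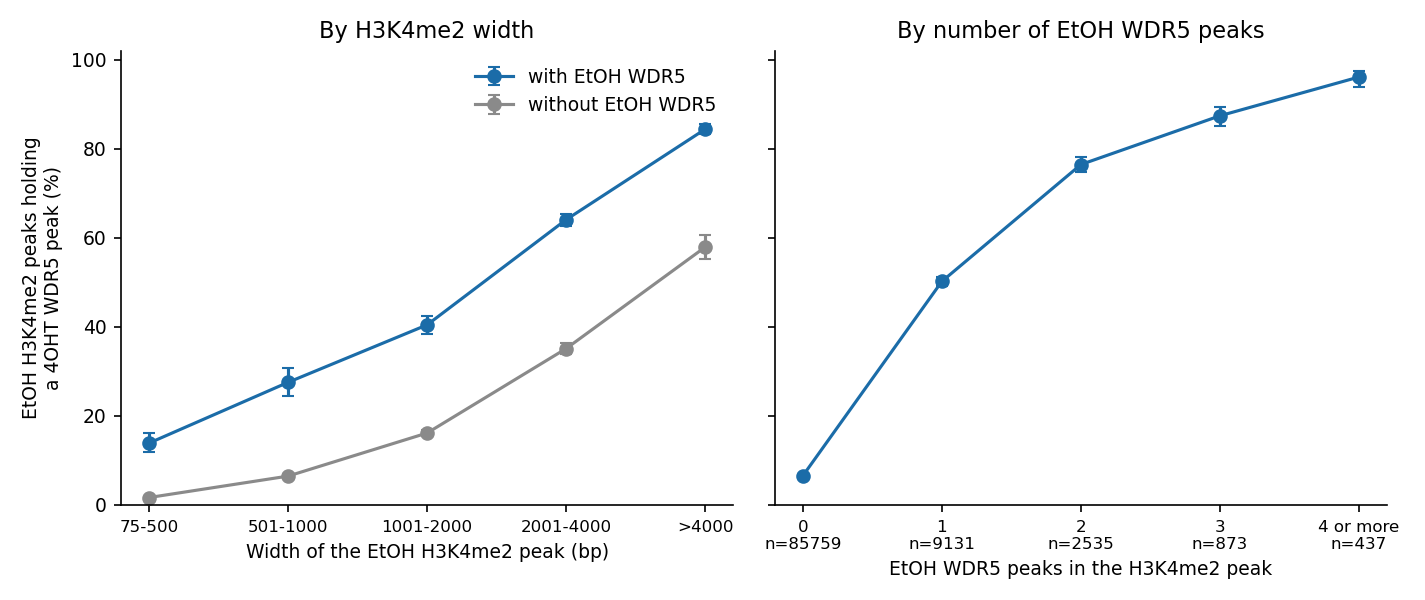
Share of EtOH H3K4me2 peaks that hold a 4OHT WDR5 peak (y axis, percent), by H3K4me2 width with and without an EtOH WDR5 peak (left, x axis in bp) and by the number of EtOH WDR5 peaks held (right); bars are 95% Wilson intervals. The share is 6.53% with no EtOH WDR5 peak and 96.1% with 4 or more.

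Where a WDR5 peak inside EtOH H3K4me2 was absent under 4OHT, the H3K4me2 call around it was mostly present. This concerns 5862 absent peaks, 30.2% of that class, as the others lay outside EtOH H3K4me2. The EtOH H3K4me2 peak around a WDR5 peak was overlapped by a 4OHT H3K4me2 peak for 99.1% of kept, 98.1% of shifted and 94.8% (94.2 to 95.3%) of absent peaks. The lower value of the absent class went with its larger number of peaks in short domains, where overlap was lower in every class. Domains of 75 to 500 bp held 130 of 5778 kept, 210 of 6955 shifted and 616 of 5862 absent peaks. At this H3K4me2 width the overlapped shares were 62.3% (53.7 to 70.2%) of kept, 40.5% (34.1 to 47.2%) of shifted and 53.1% (49.1 to 57%) of absent peaks. Above 2000 bp all 14193 WDR5 peaks had their H3K4me2 peak overlapped. H3K4me2 peaks without WDR5 in either library, counted by H3K4me2 peak, were overlapped in 40.9% of cases at 75 to 500 bp. All 3253 of them at 2001 to 4000 bp and all 529 above 4000 bp were overlapped. Overlap of broad domains was thus not particular to those with WDR5. The amount of H3K4me2 was not measured by these lists.

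Position within the H3K4me2 peak was measured as the distance of the WDR5 midpoint from the H3K4me2 centre divided by the distance from that centre to the edge, so that 0 is the centre and 1 the edge. In the EtOH H3K4me2 list the median was 0.337 (0.328 to 0.348) for kept, 0.370 (0.360 to 0.382) for shifted and 0.386 (0.375 to 0.399) for absent peaks. The classes lay in domains of different widths, with medians of 3750, 3925 and 2400 bp. In domains above 4000 bp the order was the same and wider apart, at 0.360, 0.384 and 0.460 (0.433 to 0.480), and the outer 25% of that distance held 8.34% of kept and 17.2% of absent peaks. At 2001 to 4000 bp kept peaks had 0.281, absent peaks 0.301 and shifted peaks 0.319. In shorter domains kept peaks had a higher median than absent peaks. It was 0.411 for kept and 0.339 for absent peaks at 1001 to 2000 bp. At 501 to 1000 bp these were 0.556 and 0.440, and at 75 to 500 bp 0.871 and 0.667. Among the width classes, the full order of kept, shifted and absent was thus seen only above 4000 bp.

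The order of the classes depended on whose H3K4me2 list was used. Measured in the 4OHT H3K4me2 list, the same EtOH WDR5 peaks had medians of 0.460 for kept, 0.431 for shifted and 0.419 for absent peaks, and in the DMSO list 0.638, 0.498 and 0.443. Over all classes, EtOH WDR5 peaks had a median of 0.364 in EtOH H3K4me2 and 0.434 in 4OHT H3K4me2, and 4OHT WDR5 peaks had 0.381 and 0.446. Exchanging the WDR5 list moved the median by less than exchanging the H3K4me2 list did. In domains above 4000 bp absent peaks were the outermost in the 4OHT list too, at 0.495 (0.473 to 0.519) against 0.410 for kept peaks, but not in the DMSO list, where absent peaks had 0.508 (0.476 to 0.546) and kept peaks 0.526 (0.495 to 0.560).

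**Figure D4:**
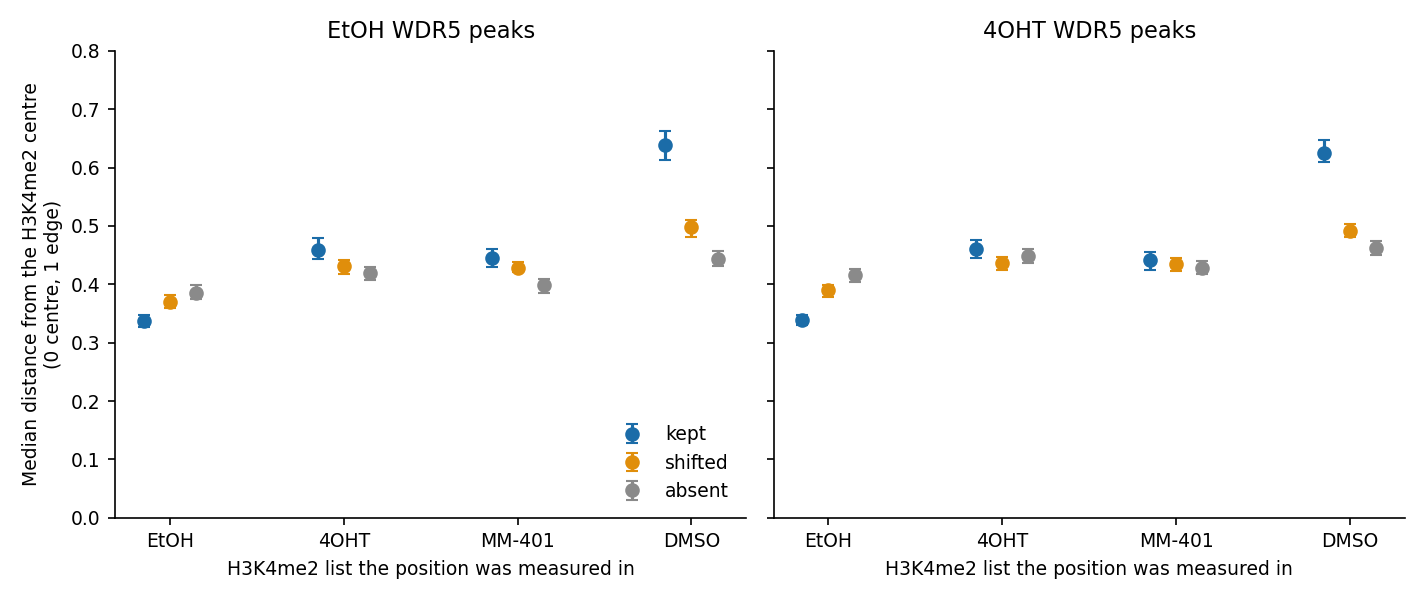
Median distance of WDR5 midpoints from the H3K4me2 centre (y axis, 0 centre and 1 edge) by the H3K4me2 list used (x axis), for EtOH (left) and 4OHT (right) WDR5 peaks of each class; bars are 95% rank intervals. Kept EtOH peaks are the most central class in the EtOH list at 0.337 and the least central in the DMSO list at 0.638.

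Coverage of the EtOH domains by the other H3K4me2 lists was examined next. Of the 15003 EtOH H3K4me2 peaks above 2000 bp, 50.3% were overlapped by more than 1 peak of the 4OHT list. For the DMSO list it was 56.7%, so that 1 broad domain in EtOH was often several peaks elsewhere. The reverse also occurred. Of 4OHT H3K4me2 peaks, 21.7% at 2001 to 4000 bp and 24.5% above 4000 bp overlapped more than 1 EtOH peak. Among DMSO peaks these shares were 22.9% and 33.2%. In DMSO, 13.2% of the length of these domains was not covered. The midpoints of kept EtOH WDR5 peaks fell in uncovered stretches in 26.2% (25 to 27.5%) of cases, shifted in 12.6% (11.8 to 13.5%) and absent in 10.1% (9.17 to 11.2%). For kept peaks above 500 bp it was 262 of 592 or 44.3% (40.3 to 48.3%). In the 4OHT list 9.10% of the length was uncovered, with 11.5% (10.6 to 12.4%) of kept, 5.12% of shifted and 6.0% of absent midpoints in it, and 18.1% (15.2 to 21.4%) of kept peaks above 500 bp. In the MM-401 list 13.7% of the length was uncovered, but only 8.13% (7.39 to 8.94%) of kept midpoints lay there and 12.0% of those above 500 bp. Midpoints of wide kept WDR5 peaks therefore often lay in stretches not covered by the DMSO list, and less often in those of the 4OHT list. For the MM-401 list their share did not exceed the uncovered share of length. Uncovered stretches included the flanks of a domain, which were not counted apart from gaps between H3K4me2 peaks.

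The MAF9 lists gave a readout of each class in cells not used to define it. Called in DMSO WDR5 were 14.9% of all EtOH peaks, 40.6% (39.4 to 41.8%) of kept, 15.9% of shifted and 5.98% (5.66 to 6.33%) of absent peaks. Under MM-401 these were 13.5%, 35.6%, 14.2% and 6.01%. Of the 4OHT list, 11.0% were called in DMSO and 10.1% under MM-401. Outside H3K4me2, 1.35% of EtOH peaks were called in DMSO.

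Within H3K4me2, with peaks split at 200 bp of width, the absent peaks of the 2 flox libraries differed. Among peaks above 200 bp inside EtOH H3K4me2, those called in EtOH and absent under 4OHT were found in DMSO in 448 of 1161 cases or 38.6% (35.8 to 41.4%), more often than shifted peaks at 32.5% (30.1 to 34.9%) and less often than kept peaks at 52.1% (50.4 to 53.7%). Peaks called under 4OHT and absent in EtOH were found in DMSO in 262 of 1108 cases or 23.6% (21.2 to 26.2%). At 75 to 200 bp the shares were 13.3% (12.4 to 14.3%) for absent EtOH and 9.28% (8.55 to 10.1%) for absent 4OHT peaks. The MM-401 list showed the same order, at 34.3% (31.6 to 37.1%) and 23.8% (21.4 to 26.4%) above 200 bp. Inside EtOH H3K4me2, sites called for WDR5 in EtOH alone were thus found in DMSO more often than sites called under 4OHT alone. The difference was more than the counting intervals. The whole lists differed in the same direction, with 14.9% of all EtOH and 11.0% of all 4OHT peaks called in DMSO. The EtOH and 4OHT lists also differed in length, and the part of that in the difference was not tested. The split at 200 bp does not match widths. Kept EtOH peaks reached 6125 bp, absent EtOH peaks 800 bp and absent 4OHT peaks 750 bp.

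**Figure D5:**
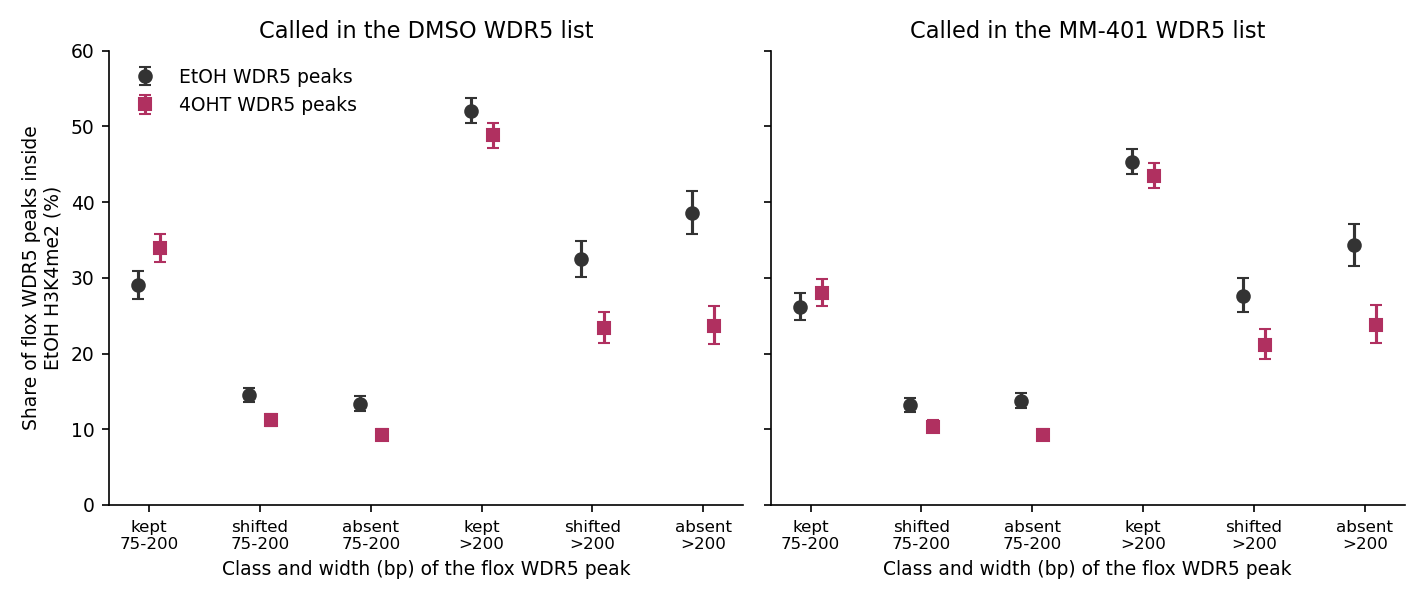
Share of flox WDR5 peaks inside EtOH H3K4me2 (y axis, percent) that were also called in the DMSO (left) or MM-401 (right) WDR5 list, by class and width (x axis), for EtOH peaks (circles) and 4OHT peaks (squares); bars are 95% Wilson intervals. Above 200 bp, 38.6% of absent EtOH peaks and 23.6% of absent 4OHT peaks are called in DMSO.

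The widest absent peaks of both libraries lay in H3K4me2. The 3 widest EtOH peaks absent under 4OHT were chr15:97923176-97923975, chr4:8574001-8574750 and chr4:109078926-109079650, of 800, 750 and 725 bp. Their nearest 4OHT peaks were 200, 75 and 150 bp wide and lay 3651, 43151 and 13326 bp away. All 3 were called for WDR5 in DMSO and under MM-401 and lay in H3K4me2 of all 4 conditions, near the centre of EtOH domains of 4150, 3775 and 3375 bp. The 3 widest 4OHT peaks absent in EtOH were chr5:123229451-123230200, chr4:134290251-134290975 and chr4:149613726-149614425, of 750, 725 and 700 bp. They too lay in H3K4me2 of all 4 conditions, and 2 were called for WDR5 in DMSO and 2 under MM-401.

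MLL1 itself, mapped in MAF9 cells only, was called at few of these sites. In DMSO an MLL1 peak lay over 1.69% of all EtOH WDR5 peaks, 3.47% (3.04 to 3.94%) of kept, 2.69% of shifted and 0.691% of absent ones. Inside EtOH H3K4me2 the values were 3.57% (3.12 to 4.07%), 3.05% (2.67 to 3.48%) and 2.01% (1.68 to 2.41%), so the classes lay closer together there. Of all 40439 4OHT peaks, 575 or 1.42% lay under a DMSO MLL1 peak. The number was the same in the EtOH list, 575 of 33974, so the lower share went with the longer 4OHT list. The DMSO MLL1 list held 8482 autosomal peaks. The DMSO MLL1 list came from a different peak caller, and its share cannot be compared with the MM-401 one.

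As a scale for 2 libraries of 1 line, WDR5 in MAF9 cells was sorted in the same way. Of 14289 DMSO peaks, 40.3% were kept under MM-401, 23.2% were shifted and 36.5% were absent. Inside H3K4me2 of the same condition, 25.7% (24.7 to 26.7%) of DMSO peaks of 75 to 200 bp were kept, against 18.4% (17.8 to 19.1%) in the flox cells. Outside it, 29.1% (26.5 to 31.7%) of 1167 DMSO peaks of this width were kept, against 1.63% (1.43 to 1.84%) of 14711 in the flox cells. At narrow width the kept share was thus far lower outside than inside in the flox lists and slightly higher outside than inside in the MAF9 lists. Treatment, line and experiment differ between these pairs and cannot be told apart.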

How the data were processed

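ChIP-seq libraries of the Mll1 flox and MAF9 cells were used as deposited peak lists, 1 per library, with no pooling. The authors deposited positions only (chromosome, start and end, a value of no other unit), with no score, signal or count, and per the labels reads were aligned with Bowtie to mm9. Peak names and the 25 bp grid identify HPeak for all lists used except DMSO MLL1, whose starts were read as 0-based. HPeak positions were taken to count from 1, both ends included. The thresholds and filters are not given in the sources used here, and depth is unknown.

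Overlap, nearest gaps (from the end of one peak to the start of the next) and positions within H3K4me2 were computed with Python 3.11.15, numpy 2.4.6 and scipy 1.17.1 on the 19 autosomes, and figures were drawn with matplotlib 3.10.9. The class calls were tested on simulated lists and gave the same counts as bedtools 2.31.1. With 1 library per condition no test was run. The named peaks are the 3 widest of each class, leaving out chromosome 18. The classes, lists and rules were chosen with earlier results of these data known. Positions in the DMSO and MM-401 H3K4me2 lists and positions by H3K4me2 width in all 4 lists were added after the values were seen. So were the stretches of EtOH domains not covered by the other H3K4me2 lists. The reference tables at hand were of another build, so genes, promoters and sequences at the peaks were not analysed here.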

Additional observations from a re-analysis of the deposited data

Results flagged for a closer look

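The share of WDR5 peaks of at most 100 bp differed in sign between the lines, and drew attention for that reason. In Mll1 flox cells it was 35.6% in EtOH and 31.2% under 4OHT, a difference of -4.36 percentage points. In MAF9 cells it was 23.3% in DMSO and 28.2% under MM-401, or 4.81 points higher. The difference between the lines was not tested, since each value rests on 1 library.

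The median WDR5 position in H3K4me2 of the same condition also had opposite signs. It was 0.364 in EtOH and 0.446 under 4OHT, 0.0819 further from the centre, and 0.426 in DMSO and 0.354 under MM-401, a difference of -0.0712. This difference was not tested either. In 1 fixed H3K4me2 list, that of EtOH, the medians were 0.364 for EtOH and 0.381 for 4OHT WDR5 peaks, and in the 4OHT list they were 0.434 and 0.446.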

How the results depend on the processing

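The lists hold no depth and no replicates, so a difference between libraries may come from sequencing or peak calling, which was not tested. Of 76 values under alternatives, 30 stayed within the counting interval of the reported value. The kept and absent shares stayed within it on all chromosomes and with 0-based starts. Kept shares were 12.8% of EtOH and 10.9% of 4OHT peaks when 50% of the peak had to be covered, 27.0% and 22.7% in the widest 50% of each list, and 17.8% and 17.6% with the 4OHT list reduced to the EtOH number. Absent shares were 67.7% and 72.2% with a 500 bp limit, 47.8% and 52.4% with a 5 kb limit, 52.5% and 57.9% in the widest 50%, 59.7% and 59.96% with the reduced 4OHT list, and 61.8% and 66.6% with peaks up to 500 bp apart joined. Joining also gave a median width of 350 bp for kept sites. The absent class was the most common at each of these absent shares.

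The shares inside H3K4me2 for kept, shifted and absent peaks were 83.8%, 81.2% and 27.2% for whole peaks within it, 87.4%, 80.7% and 27.9% in the 4OHT H3K4me2 list, 82.2%, 77.1% and 28.7% in the DMSO list, 89.2%, 82.2% and 27.2% with H3K4me2 of at least 500 bp, and 85.8%, 73.2% and 23.7% for peaks standing alone. In the widest 50% of each list shifted peaks were inside in 93.5% and absent in 51.6% of cases, so that the order of kept and shifted turned there. The median position of absent peaks was 0.356 in H3K4me2 of at least 1000 bp, below that of shifted peaks. With the midpoint in H3K4me2, kept peaks had 0.326 and absent peaks 0.369. In the 4OHT list the medians were 0.460, 0.431 and 0.419, in the DMSO list 0.638, 0.498 and 0.443, and in the MM-401 list 0.446 and 0.429 for kept and shifted peaks, so the order of the classes turned in all 3. The median nearest gap of peaks without overlap was 8526 bp, and 12314 bp in the widest 50% of each list. No paired analysis was possible because each group has 1 library and the labels carry no replicate numbers.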
